A study of Homo sapiens with 11 samples.

Results

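PKD1, the pseudogenes PKD1P1, PKD1P3 and PKD1P6, and the genes NPIPA1 and NPIPA5 lie on the short arm of human chromosome 16 and gave 302 of the 122708 windows listed as bound in any group of an enhanced crosslinking and immunoprecipitation (eCLIP) study of the ribosomal protein RPS19. A window is a stretch of at most 100 bases that the authors listed as enriched in immunoprecipitated RNA (IP) over size-matched input. A window was counted when any gene name given to it was 1 of these 6 genes. The members were thus chosen on being listed, and their enrichment over input is given as a description, without a test. The cells were HEK293T, a human embryonic kidney line. The IP groups were V5-tagged RPS19 with the substitution R101H (2 samples), V5-tagged RPS19 with R62W (3 samples) and V5-tagged wild-type RPS19 (WT, 3 samples), each expressed from a transfected plasmid, and both substitutions are associated with Diamond-Blackfan anemia. The 3 inputs came from cells that received no plasmid. A difference in IP over input between groups therefore cannot be told apart from a difference in RNA level that a plasmid brought about. Whether replicates came from separate cultures is not stated in the labels. The p-values given here thus reflect a spread that may be technical. They cover only the replicates in which a window passed the authors' limit, since the others have no value.

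In eCLIP, RNA is fixed to protein with ultraviolet light, and the RNA precipitated with the protein is sequenced. RPS19 belongs to the small ribosomal subunit, is needed to mature its ribosomal RNA, and is the gene most often altered in Diamond-Blackfan anemia, a failure of red cell production. PKD1 encodes polycystin-1, a large membrane protein that works with polycystin-2 at the primary cilium of kidney tubule cells and is the gene most often altered in autosomal dominant polycystic kidney disease. Most of PKD1 was duplicated into a set of nearly identical pseudogenes further along the same chromosome arm, several of which are transcribed. These copies lie among members of the NPIP (nuclear pore complex interacting protein, or morpheus) family, which multiplied in primates with the same duplicated blocks.

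An example of the similarity of the copies is given by the microRNA hairpins that the RefSeq annotation (GRCh38.p14) places within them. Over this stretch, 1 base separates PKD1 or PKD1P6 from PKD1P3 or PKD1P1. How far this holds in the listed windows is not known here, since their sequences were not read. The 4 hairpins below are given over their 67 shared bases, 5′ to 3′.
MIR6511B1 (PKD1): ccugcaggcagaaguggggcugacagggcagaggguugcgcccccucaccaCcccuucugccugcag
MIR6511B2 (PKD1P6): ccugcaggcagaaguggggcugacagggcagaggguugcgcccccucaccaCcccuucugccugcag
MIR6511A1 (PKD1P3): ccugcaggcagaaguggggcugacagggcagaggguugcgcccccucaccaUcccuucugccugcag
MIR6511A2 (PKD1P1): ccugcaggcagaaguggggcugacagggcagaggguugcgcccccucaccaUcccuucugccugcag
The capital marks the 1 base that differs, U52C, counted from the 5′ end of the MIR6511A1 hairpin. MIR6511A1 and MIR6511A2 were identical over these bases, as were MIR6511B1 and MIR6511B2. The hairpin of MIR6511B1 lies at chr16:2106669-2106753 on the minus strand, and that of MIR6511A2 at chr16:16324588-16324654 on the plus strand. The mature 3′ arms share their seed (bases 2 to 8, in capitals) and differ outside it.
hsa-miR-6511b-3p: cCUCACCAccccuucugccugca
hsa-miR-6511a-3p: cCUCACCAucccuucugccugc
No listed window overlapped any of the 4 hairpins. A second hairpin pair, MIR6770-1 in the span of PKD1P3 and MIR6770-2 in that of PKD1P1, was identical over its 60 bases.
The sources used here do not say how reads that match several copies were assigned, so a value placed on 1 copy may hold reads of another.

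The lists differed in length, with 93331 windows for R101H, 86567 for R62W and 15402 for WT. The 6 genes held 275, 285 and 168 of these windows in R101H, R62W and WT, which is 0.295%, 0.329% and 1.09% of each list. Over all names, 76.1%, 70.5% and 12.6% of the 122708 windows were in the R101H, R62W and WT lists, and nothing is read from the members' counts against these shares, since the members were chosen by listing. Depth was above the list's usual level. The median member window had 185 pooled IP counts in R101H, 192 in R62W and 113.5 in WT, against 48, 47 and 49 for all listed windows, and a median of 10, 15 and 15 pooled input counts. No library totals are given in the tables. If pooled counts cover only the replicates in which a window passed, which is not known here, they also depend on how many passed. Low q-values were more frequent among member windows than over the lists. The highest q-value over replicates was at most 0.05 for 235 of 275 member windows in R101H (85.5%, against 46.2% of the list), 223 of 285 in R62W (78.2%, against 26.1%) and 57 of 168 in WT (33.9%, against 19.4%). A window passed in all 3 replicates for 238 of 285 members in R62W (83.5%, against 44.5%) and 94 of 168 in WT (56.0%, against 22.8%), and in both replicates for every listed R101H window (100%). The member windows nearest to the authors' limit had q-values of 0.198 in R101H and 0.197 in R62W, both in PKD1P1, and 0.199 in WT, where a PKD1P1 window and a PKD1 window had the same value.

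Of the 302 windows, 167 were in all 3 lists, 92 in the R101H and R62W lists only, 16 in R101H only, 26 in R62W only and 1 in WT only. The WT list of members was thus held within the other lists except for that 1 window: 99.4% of it was shared with R101H and the same with R62W, against 72.0% and 79.6% of the whole WT list. The shared R101H and R62W windows numbered 259, which is 94.2% of the R101H members and 90.9% of the R62W members, against 64.2% and 69.2% of the whole lists. The exception was a PKD1P6 window near a 3′ splice site at chr16:15135926-15135995, with 33 IP counts, 1 input count and log2 odds ratios of 2.97 and 4.33 in the 2 WT replicates in which it passed.

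Enrichment of the members was above that of the lists in R101H and R62W. Each log2 odds ratio given here is from the authors' deposited tables. The authors' log2 odds ratio of IP over input, averaged over the replicates in which a window passed, had a median over member windows of 3.26 in R101H (range 1.38 to 6.41), 2.89 in R62W (1.33 to 5.77) and 2.09 in WT (1.09 to 4.94). The medians of the whole lists were 2.00, 1.90 and 2.03. Each of the 8 names or joint names of the members had its highest median in R101H and its lowest in WT, as the plot of windows by gene name shows.

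**Figure D1:**
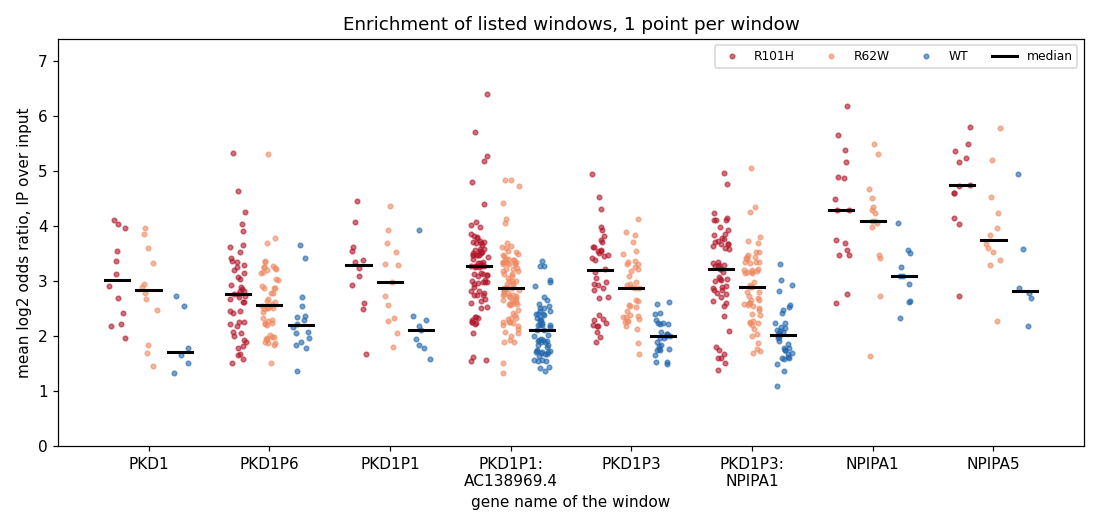
Mean log2 odds ratio of IP over input for each listed window, by gene name and group (R101H, R62W, WT), 1 point per window, with the median as a bar. Names joined by a colon are windows that the authors gave to 2 genes. WT medians lie below those of R101H and R62W for each name, and NPIPA1 and NPIPA5 have the highest medians.

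PKD1 itself, the intact gene, gave few windows for its length. It had 12 windows in R101H, 12 in R62W and 6 in WT, with medians of 3.02, 2.84 and 1.72. All lay within 2722 bases, chr16:2097859-2100580 on the minus strand, which is 5.77% of the annotated 47191 bases of the gene, and covered 973 of them. Of its R101H windows, 5 were annotated as mRNA exon, 6 as exon of a noncoding transcript and 1 as intron. The window at chr16:2099644-2099706 had log2 odds ratios of 4.02 and 4.18 in the R101H replicates, 3.25, 3.50 and 4.05 in R62W, and 2.08, 2.51 and 3.03 in WT, from 265, 226 and 116 IP counts and 12, 16 and 16 input counts. Its R101H and R62W values overlap each other, and neither group overlaps WT. The neighbouring mRNA exon window at chr16:2100166-2100237 had 2.76 and 5.31 in R101H, 2.26, 2.68 and 5.06 in R62W, and 1.31 and 4.14 in the 2 WT replicates in which it passed. There 1 replicate of each group stood far above the rest, and the groups overlap. The window with the highest R62W value, at chr16:2098108-2098191, was not listed in WT and had 1.95 and 2.40 in R101H, against 3.08 and 4.84 in R62W, from only 3 and 1 input counts.

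**Figure D2:**
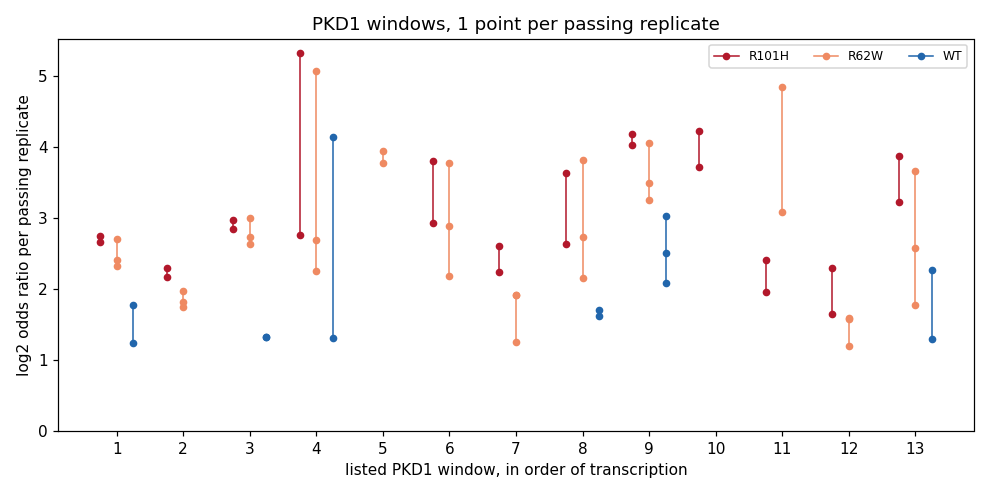
Log2 odds ratio of IP over input in each replicate in which a PKD1 window passed, for the 13 listed PKD1 windows in order of transcription. Points joined by a line are replicates of 1 group (R101H, R62W, WT), and WT is listed in 6 of the windows.

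The span of PKD1 also held 7 windows in R101H, 7 in R62W and 4 in WT that the authors named MIR6511B1 and annotated as primary microRNA. They lie on both sides of the hairpin shown above, on the strand of PKD1. Their median log2 odds ratios were 3.10 in R101H, 2.45 in R62W and 1.91 in WT. The highest of them, at chr16:2106854-2106953, had 4.15 and 4.58 in R101H, 2.30, 3.72 and 4.15 in R62W, and 1.44, 2.46 and 3.54 in WT. R101H lay above WT there, and R62W overlapped WT. These windows do not carry the PKD1 name and are in none of the counts of members.

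The pseudogenes held most of the windows. PKD1P1, annotated in RefSeq as a transcribed pseudogene at chr16:16310134-16332477, had 95 windows in R101H, 102 in R62W and 68 in WT. These windows ran to chr16:16333810, past that span. Their median log2 odds ratios were 3.27, 2.88 and 2.10. Of these windows, 83, 89 and 59 also carried AC138969.4, which the files annotate as protein coding on the same strand, so their reads cannot be given to 1 of both genes. The highest R101H value of any member was in PKD1P1 at chr16:16327921-16328012, with 4.23 and 8.59 in R101H, 3.49, 4.33 and 4.37 in R62W, and 2.33, 2.79 and 3.62 in WT. The R101H replicates differed widely there, on 502 IP counts and 6 input counts, and R62W overlapped WT. The highest R62W value in PKD1P1, at chr16:16322305-16322370, came with 2 to 4 input counts in each group and with groups that overlap: 3.80 and 6.58 in R101H, 3.38, 4.46 and 6.67 in R62W, and 2.22, 2.42 and 5.16 in WT.

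PKD1P3, another pseudogene, annotated in RefSeq at chr16:14917534-14935708, had 93 windows in R101H, 94 in R62W and 62 in WT, with median log2 odds ratios of 3.22, 2.88 and 2.00. The windows that the authors gave this name began at chr16:14911551, before that span. The part towards NPIPA1 carried both names, in 55, 56 and 35 windows. The window at chr16:14923721-14923786 had 4.63 and 4.90 in R101H, 4.45, 4.87 and 5.81 in R62W, and 2.40, 2.66 and 3.39 in WT. The window at chr16:14929446-14929542 had 4.68 and 5.27 in R101H, 3.79, 4.40 and 4.55 in R62W, and 2.80, 2.80 and 3.20 in WT. In both, all R101H and R62W values lay above all WT values.

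PKD1P6 lies on the minus strand, as PKD1 does, and had 47 windows in R101H, 50 in R62W and 16 in WT. Its median log2 odds ratios over these unlike sets of windows, 2.77, 2.57 and 2.19, spread the least between groups among the 6 genes. Over the 15 windows listed in all groups, the median difference from WT was 1.28 in R101H and 0.92 in R62W. Its best covered window, at chr16:15131329-15131413, had 639 IP counts in R101H, 641 in R62W and 249 in WT, against 16, 18 and 22 input counts. The log2 odds ratios there were 4.75 and 5.91 in R101H, 4.48, 5.47 and 5.97 in R62W, and 3.09, 3.52 and 3.66 in WT. R101H and R62W overlap each other and lie above WT.

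NPIPA1 and NPIPA5 encode proteins of the NPIP family, whose cellular role is little known. Their own windows had the highest medians of the members and were less rich in G and C, with medians of 46.6% and 48.4% in R101H, against 66.7% for all member windows and 49.2% for the whole list. They also had lower counts. Their medians in R101H were 110 and 101.5 IP counts and 5.5 and 4 input counts, against 185 and 10 for all member windows. NPIPA1 alone had 16 windows in R101H, 15 in R62W and 10 in WT, with median log2 odds ratios of 4.30, 4.10 and 3.10. Its window at chr16:14941856-14941940, an mRNA exon, had 5.37 and 7.01 in R101H, 3.48, 6.25 and 6.72 in R62W, and 2.998 and 3.52 in 2 WT replicates, but only 2 to 4 input counts in each group. NPIPA5 had 12 windows in R101H, 12 in R62W and 6 in WT, with medians of 4.74, 3.75 and 2.83. Of its windows, 10, 10 and 6 were annotated as coding sequence, and no other member had a coding sequence window. The coding window at chr16:15373715-15373778 had the highest value of any member in R62W and in WT, with 5.34 and 5.63 in R101H, 3.71, 6.56 and 7.05 in R62W, and 4.04 and 5.85 in 2 WT replicates. The groups overlap in that window, which held 1 to 3 input counts in each group.

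Most member windows were annotated as exon. Exons of noncoding transcripts took 161 windows in R101H, 162 in R62W and 113 in WT, and pseudogene exons took 51, 51 and 38. Intronic windows, those beside splice sites included, made up 13.8% of the members in R101H (38 windows, exact Clopper-Pearson 95% interval 9.97 to 18.5%), 16.5% in R62W (47 windows, 12.4 to 21.3%) and 0.595% in WT (1 window, 0.0151 to 3.27%). These intervals, like the others given here, cover counting error only, and windows of 1 gene and of its copies are not independent. The shares for the whole lists were 10.7%, 13.5% and 31.4%, so WT was the lowest of the groups for these genes and the highest over all windows. The order among the members turned with lists of equal length, where the share was 0% in R101H, 0.935% in R62W and 0.595% in WT. The intronic member windows were the less certain ones, since with the highest q-value at most 0.05 their share was 2.55% in R101H, 2.24% in R62W and 0% in WT.

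**Figure D3:**
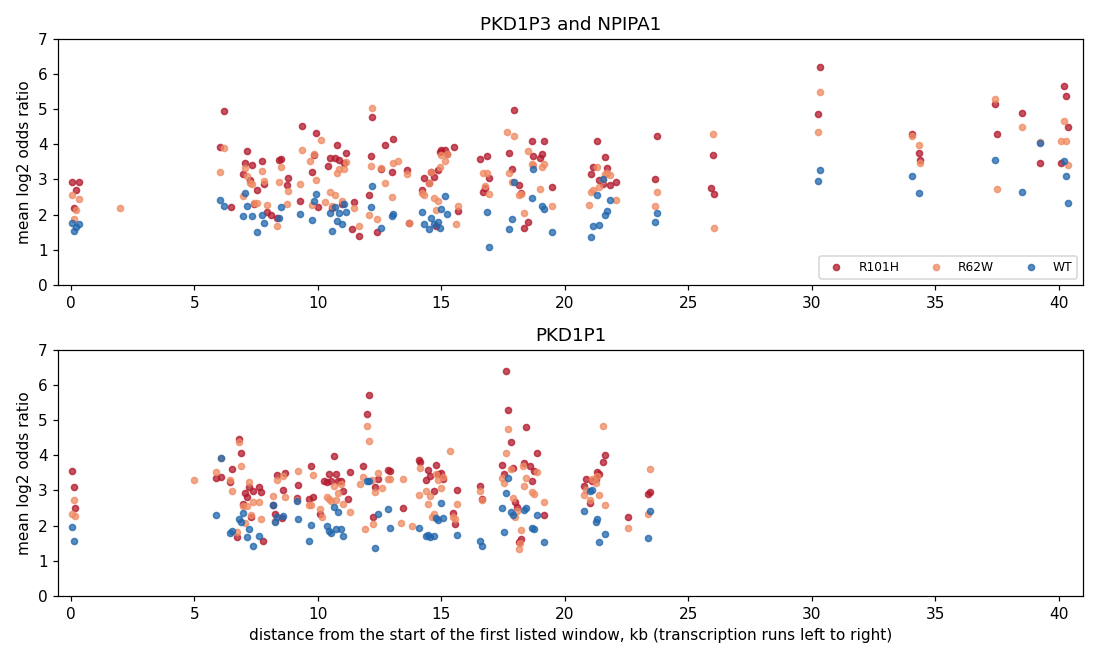
Mean log2 odds ratio of each listed window along PKD1P3 with NPIPA1 (top) and along PKD1P1 (bottom), by distance in kb from the start of the first listed window, for R101H, R62W and WT. The WT windows lie among those of R101H and R62W, and WT points lie mostly below those of R101H and R62W.

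PKD1P1 and PKD1P3 allow a comparison of the same stretch in different copies. Windows of equal length at corresponding positions, placed by the distance between the paired hairpins to within 5 bases, gave 58 pairs, and 47 of these had the same G and C content. Both windows of a pair were listed in 52 pairs in R101H, 55 in R62W and 40 in WT. The median difference in log2 odds ratio, PKD1P1 minus PKD1P3, was -0.07 in R101H, 0.13 in R62W and 0.00 in WT, and the median size of the difference was 0.36, 0.31 and 0.32. Across pairs the values of the copies were weakly related, with Pearson's r of 0.36, 0.36 and 0.31 over those pairs, which share libraries and base composition. IP counts differed between the windows of each listed pair, so the copies had not been given the same counts. In the 40 pairs listed in all groups, PKD1P1 had medians of 3.37 in R101H, 2.96 in R62W and 2.07 in WT, and PKD1P3 had 3.58, 3.20 and 2.03. The order of the groups was thus the same in both copies.

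**Figure D4:**
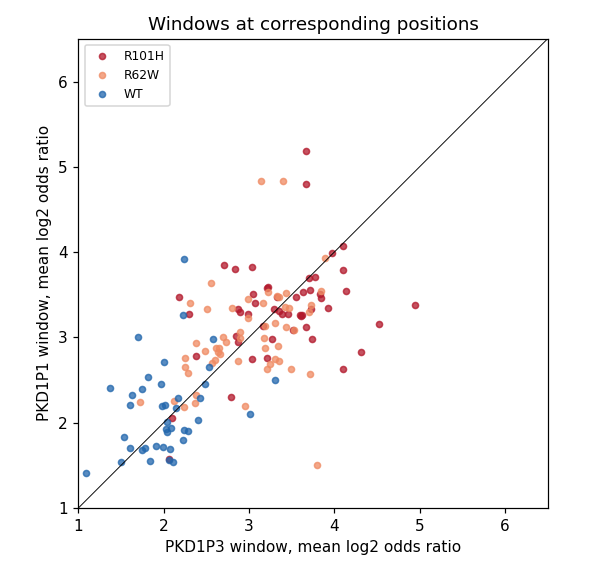
Mean log2 odds ratio of PKD1P1 windows against that of PKD1P3 windows at the corresponding position, for R101H, R62W and WT, 1 point per pair listed in that group. The line marks equal values. WT points sit towards the lower left and points scatter on both sides of the line.

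The comparison of each substitution with wild-type RPS19 asks whether the altered protein recovered more or less of these RNAs. In the 10627 windows listed in all 3 groups, the 167 member windows held 2.52% of the IP counts in R101H (exact 95% interval 2.50 to 2.54%), 2.12% in R62W (2.10 to 2.14%) and 1.11% in WT (1.09 to 1.12%). Their share of the input counts was 0.609% in R101H (0.584 to 0.633%), 0.687% in R62W (0.665 to 0.709%) and 0.714% in WT (0.689 to 0.740%). The IP shares are thus ordered R101H, R62W, WT. The input share was lowest in R101H, while the input intervals of R62W and WT overlap. Whether pooled counts cover only the replicates in which a window passed is not known here. If so, these shares also depend on how often member and other windows passed. The pooled input counts of these 167 windows were 2386 in the R101H table, 3653 in that of R62W and 3025 in that of WT, and which of the 3 inputs each table used is not stated, so an input count or share of a group is that of its table. The shares come from pooled replicates, so they have no replicate error. WT had the lowest mean log2 odds ratio of the 3 groups in 163 of the 167 windows (97.6%, against 73.1% of all 10627), and R101H the highest in 136 (81.4%, against 74.9%).

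R101H was above WT in 163 of the 167 member windows listed in both, with a median difference in log2 odds ratio of 1.38, against 0.60 over all 11082 windows tested. R101H and WT replicate values did not overlap in 135 of them, all with R101H higher (80.8%, against 48.4% of all windows higher and 3.84% lower). Only replicates in which a window passed have values, so WT can be missing a value. Among the 94 member windows that passed in every replicate of both groups, 83 did not overlap, with R101H higher, against 1515 of 2730 windows. Of the 167 windows, none passed limma's test at an adjusted p of 0.05 (0% of all windows), and the lowest adjusted p among them was 0.162. At an unadjusted p under 0.05, 115 were higher and 0 lower, against 20.6% and 0.722% of all windows. The lowest p was that of the NPIPA5 coding window at chr16:15366707-15366760, with 4.48 and 4.71 in R101H, against 2.01, 2.10 and 2.44 in WT. Its difference was 2.41 (SE 0.35, n = 2 and 3, limma adjusted p = 0.162). An NPIPA1 window at chr16:14951793-14951881, with 5.31 and 5.46 in R101H, against 2.63, 3.23 and 3.42 in WT, differed by 2.29 (SE 0.39). A PKD1P3 and NPIPA1 window at chr16:14928453-14928525, with 2.90 and 3.16 in R101H, against 1.07, 1.08 and 1.12 in WT, differed by 1.94 (SE 0.33). In these windows the groups lie well apart, with limma's adjusted p the same 0.162.

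This comparison turned on which windows were tested. When it was limited to the windows that passed in every replicate of both groups, limma called 48 of 94 member windows higher in R101H than in WT and 0 lower, against 17.8% and 0.403% of the 2730 windows tested. All 48 lay just under the threshold, with limma adjusted p-values from 0.0456 to 0.0499. The called windows comprised 20 with the joint PKD1P1 name, 11 with the joint PKD1P3 and NPIPA1 name, 6 of PKD1P3, 4 of PKD1P1, 3 of PKD1P6, 2 of NPIPA1, 1 of NPIPA5 and 1 of PKD1. The PKD1 window was the one at chr16:2099644-2099706, with a difference of 1.56 (SE 0.38, limma adjusted p = 0.0469). When the values of these 94 windows were set against the median difference of all 2730, 0.91, the median of the members was 0.64 and limma called none. With at least 10 pooled input counts in both groups, limma called 49 of 104 member windows higher and 0 lower, against 9.32% and 0.101% of 6945 windows. Centring was not run with that minimum.

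R62W was above WT in 165 of 167 member windows, with a median difference of 1.03, against 0.26 over all 12263 windows tested. Replicate values of R62W lay wholly above those of WT in 90 windows and wholly below in 0 (53.9% of members higher, against 24.1% of all windows higher and 4.24% lower). Here too, only passing replicates have values. Among the 94 member windows that passed in every replicate of both groups, 59 lay wholly above, against 847 of 2672 windows. No member passed limma's test (0% of all windows), with a lowest adjusted p of 0.391, while 78 were higher and 0 lower at an unadjusted p under 0.05, against 9.66% and 0.546% of all windows. The lowest p was in PKD1P1 at chr16:16322628-16322715, with 2.81, 3.004 and 3.09 in R62W, against 1.14, 1.23 and 1.72 in WT, a difference of 1.60 (SE 0.27). The PKD1P3 and NPIPA1 window at chr16:14928453-14928525 had 2.36, 2.52 and 2.90 in R62W, against the WT values given above, a difference of 1.51 (SE 0.25). PKD1P1 at chr16:16323223-16323289 had 3.23, 3.32 and 3.47 in R62W, against 1.69, 1.93 and 2.14 in WT, a difference of 1.42 (SE 0.25). These 3 windows shared limma's adjusted p of 0.391. Both comparisons use the same WT samples and are not independent.

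**Figure D5:**
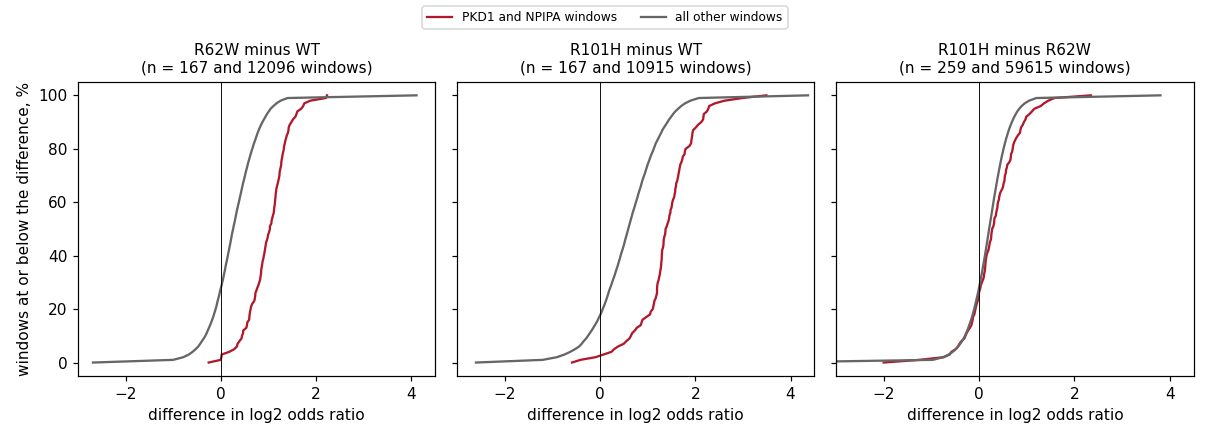
Percent of windows at or below each difference in mean log2 odds ratio, for the PKD1 and NPIPA windows and for all other windows listed in both groups of a comparison. Each panel's title gives the 2 numbers of windows. The member curve lies to the right of the other curve for R62W minus WT and R101H minus WT, and close to it for R101H minus R62W.

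By gene, the median difference from WT ran between 1.28 for PKD1P6 and 2.03 for NPIPA1 in R101H, and between 0.84 for PKD1P3 and 1.25 for NPIPA1 in R62W, counting joint names apart. In PKD1 it was 1.52 in R101H and 1.02 in R62W over 6 windows, each of them higher than in WT. The windows that went the other way were few. In R101H they were an NPIPA1 window at chr16:14950752-14950821 (difference -0.59, SE 0.75), a PKD1P1 window at chr16:16316384-16316455 (-0.54, SE 0.61), and windows at chr16:14933066-14933135 (-0.14) and chr16:16331315-16331386 (-0.35). The last pair were also the ones below WT in R62W, by -0.03 and -0.26. In each, the replicate values of the groups overlap. The first 2 were the windows with the highest WT values of NPIPA1 and PKD1P1, with 3.07 and 5.03 for the NPIPA1 window and 3.13 and 4.71 for the PKD1P1 window in the WT replicates in which they passed.

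The difference from WT was set beside those of windows most like the members. Windows of the other NPIP genes and PKD1 pseudogenes, a list of 25 genes of which R101H had 8, R62W 8 and WT 6, had median differences of 1.52 for R101H minus WT and 1.02 for R62W minus WT over 88 windows each. Other pseudogene exon windows had 1.31 over 63 windows and 0.89 over 65, and other exon windows of noncoding transcripts had 0.40 over 380 and 0.23 over 411. Windows of the listed NPIP genes and PKD1 pseudogenes were not removed from these exon classes, so some may be counted in both. The size seen in the 6 genes was therefore also present in their relatives, such as PKD1P4 with 82, 82 and 52 windows, and whether it differs between these sets was not tested. The difference was present in windows rich in G and C and in the rest. Among windows with at least 60% G and C, the median difference of members was 1.34 in R101H and 0.98 in R62W over 141 windows, against 0.47 over 1581 and 0.16 over 1980 other windows. Below 60%, the members had 1.91 and 1.14 over 26 windows, against 0.61 over 9334 and 0.27 over 10116.

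R101H and R62W differed from each other by less. R101H was above R62W in 190 of 259 member windows, with a median difference of 0.27, against 0.21 over all 59874 windows tested. Values of passing replicates did not overlap in 47 windows with R101H higher and in 7 with R101H lower, against 17.9% and 3.59% of all windows. This is 18.1% of the members for the higher ones, close to the share of all windows. No window passed limma's test (0% of all windows), and at an unadjusted p under 0.05 there were 11 higher and 1 lower, against 1.64% and 0.159%. The lowest p was in PKD1P1 at chr16:16331917-16331980, with 3.86 and 4.17 in R101H, against 2.46, 2.59 and 2.67 in R62W, a difference of 1.44 (SE 0.31, limma adjusted p = 1.00). Similar windows were PKD1P3 at chr16:14921445-14921527, with a difference of 1.33 (SE 0.36), and PKD1P1 at chr16:16320013-16320095, with 1.13 (SE 0.31), both with the same adjusted p.

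The wider pathway and the neighbouring genes gave few windows in WT. The whole WT list was also short, with 15402 windows, against 93331 in R101H and 86567 in R62W. Of 22 genes of the polycystin pathway and of related cystic disease, R101H listed 11, R62W 12 and WT 4, with 170, 131 and 9 windows and median log2 odds ratios of 1.92, 1.91 and 1.27. PKD2, which encodes polycystin-2, the channel partner of polycystin-1, had 6 windows in R101H (median 1.93), 6 in R62W (median 2.36) and 0 in WT. GANAB and PRKCSH, the subunits of glucosidase II, which trims sugar chains of proteins folding in the endoplasmic reticulum, polycystin-1 among them, had 30 and 12 windows in R101H, 32 and 13 in R62W, and 5 and 2 in WT. Of 37 other genes near PKD1 or the duplicated blocks, R101H listed 21, R62W 21 and WT 11, with 430, 405 and 25 windows and medians of 2.09, 2.00 and 1.75. SMG1 alone held 130, 124 and 8 of these windows. TRAF7, near PKD1, had 29 windows in R101H, 24 in R62W and 1 in WT, and ABCC1, near the duplicated blocks, had 32, 26 and 0. Differences between these lists and the 6 genes were not tested.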

How the data were processed

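The eCLIP libraries were 2 R101H, 3 R62W, 3 WT and 3 input samples. GRCh38, fastp and STAR are named in the submitters' processing notes, while versions, the window caller and the assignment of reads are not given in these sources. For each IP group, 1 table of windows was deposited. Its IP and input counts were pooled by the authors, per the file headers. Whether they cover all replicates or only those in which a window passed is not known here. Its log2 odds ratios were deposited as the lowest, mean and highest over passing replicates, and its p-values and q-values come from the authors' enrichment test. The deposited fraction of G and C bases and another deposited quantity, the number of passing replicates, were also used. From the values, q-values stayed under 0.2 in listed windows.

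Replicate log2 values were rebuilt from the lowest, mean and highest, and carry no sample label. Windows listed in both groups of a comparison were fitted with limma 3.58.1 in R 4.3.3 (functions lmFit and eBayes), Benjamini-Hochberg adjusted over all of them at 0.05, and tested on simulated data. This covers only windows that passed in both groups. Coordinates are 1-based on GRCh38, and sequences are from RefSeq (GRCh38.p14). Windows named were, per gene and group, the highest mean log2 odds ratio and, per comparison, the 3 lowest p. The windows lower than WT, the MIR6511B1 windows and the named genes of other lists were chosen after their values were seen. The members and the 3 gene lists were chosen with earlier results of these data known. Alternatives were stricter listing, names, input minimum 10, equal list lengths, pooled ratios with a pseudocount of 0.5, centring, trend and leaving out values. Tables of repeat elements were not used.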

Additional observations from a re-analysis of the deposited data

How the results depend on the processing

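The direction of the 3 median differences between groups and of the 9 window differences tested by name was the same under each alternative run. With centring, however, the median for R101H minus R62W was only 0.06, against a median SE of 0.45. Counts and shares moved with the listing rules. The number of member windows was 137 in R101H, 140 in R62W and 74 in WT when the only gene name had to be a member, 146 in R101H with at least 10 input counts, 57 in WT with the highest q at most 0.05, and 94 in WT when every replicate had to pass. The intronic share was 2.55% in R101H, 2.24% in R62W and 0% in WT with the highest q at most 0.05. It was 3.42% in R101H, 4.15% in R62W and 0% in WT with at least 10 input counts, and 0% in R101H, 0.935% in R62W and 0.595% in WT with lists of equal length. With every replicate passing it was 4.62% in R62W and 0% in WT, and with only member names it was 11.4% in R62W. The median log2 ratio of pooled counts was 4.10 in R101H, 3.57 in R62W and 2.86 in WT. This ratio has no baseline for G and C content or library depth, so its differences between groups also hold depth. The limma count for R101H minus WT was 48 of 94 windows with every replicate passing and 49 of 104 with at least 10 input counts (9.32% of all windows), and 0 otherwise. Centring on the median of all windows gave a median of 0.77 for R101H minus WT, 0.76 for R62W minus WT and 0.06 for R101H minus R62W. Every replicate passing together with centring, chosen after seeing the data, gave 0.64 for R101H minus WT and 0.57 for R62W minus WT. For R101H minus R62W it gave 0.01. Each of these had 0 calls among the members. Among the windows tested by name, 3 differences, all R101H minus WT, passed the threshold with every replicate passing, and 1 of these also with at least 10 input counts. The median without the lowest or the highest value of each group's 3 replicates ran from 1.29 to 1.55 for R101H minus WT, from 0.90 to 1.11 for R62W minus WT, and from 0.04 to 0.53 for R101H minus R62W. The values carry no sample label, so this leaves out no library, and in the comparisons with R101H, where values of the other group alone were dropped, the direction of the move is fixed by which value was dropped. No paired analysis was possible because the tables do not label the replicates. Fisher's exact test on pooled counts was not run, since without library totals its odds ratio would also hold the depth of the pooled libraries. Low input counts, a median of 10 to 15 per window, limit the precision of each log2 odds ratio.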

Other observations

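The MIR6511B1 windows within PKD1 show how the choice of name sets the count for the intact gene. With them, the span of PKD1 held 1331 further IP counts in R101H, 1348 in R62W and 436 in WT, beside 1894, 2055 and 495 in the windows named PKD1. Input counts were 94, 143 and 66 in the MIR6511B1 windows and 121, 196 and 87 in the PKD1 windows. In NPIPA9, another gene of the NPIP family, the lists held 28 windows for R101H, 28 for R62W and 18 for WT, with median log2 odds ratios of 3.96, 3.27 and 2.34. NPIPA7, also of that family, had 9, 8 and 4 windows with medians of 4.745, 4.20 and 3.19, so medians as high as those of NPIPA1 were also present there. NPIPP1, an NPIP pseudogene, had 18, 18 and 6 windows with medians of 4.24, 3.66 and 2.84. In the NPIPB branch, NPIPB3 had 18 windows in R101H (median 1.83), 17 in R62W (median 2.13) and 0 in WT, NPIPB5 had 7 (median 1.86), 8 (median 2.22) and 0, and NPIPB4 had 7 (median 2.68), 6 (median 2.17) and 2 (median 2.26). Differences between these genes were not tested.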
